A study of Rattus norvegicus with 12 samples.

Results

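The windows described are the 396 stretches of 100 bp on the 20 autosomes of the rat whose MeDIP-Seq counts differed most between the 3 control lineage pools of ventral prostate epithelial cells. A window was eligible when its counts summed to 60 or more over those 3 pools, which held for 399611 of the 27820300 windows of the series. An eligible window was a member when the chi-square of its 3 counts, against the counts expected from the 3 column totals, had a p under 1e-10 with 2 degrees of freedom. The members made up 0.0991% of the eligible windows. The members were thus chosen by the counts of the control epithelial pools, and their differences among those pools are given as a description, with no test.

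MeDIP-Seq enriches DNA fragments with an antibody against methylated cytosine and sequences them, so that a high count marks a stretch with much methylated DNA, with many copies in the genome, or both. In mammals the mark sits mostly on cytosines followed by guanines. It covers much of the genome, is dense over many repeated sequences, differs between cell types, and can differ between individuals of an outbred stock along with their DNA sequence. The prostate gland consists of secretory epithelial cells lying on a stroma of smooth muscle cells and fibroblasts.

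All pools came from F3 generation males of the outbred strain Hsd:Sprague Dawley SD, whose ventral prostates were taken at 19 to 21 days of age according to the extraction protocol, while other passages of the sources used here give slightly different ages. The great-grandmothers (F0 generation) had been injected intraperitoneally every day from gestation day 8 to day 14, with vinclozolin at 100 mg/kg body weight per day for the vinclozolin lineage or with dimethyl sulfoxide (DMSO), the vehicle, for the control lineage. Neither F3 lineage was itself exposed, and both were housed alike. Epithelial and stromal cells were parted by collagenase digestion, gravity settling and slow centrifugation, and each of the 12 samples is a pool of several rats, 3 pools per lineage and cell type. The pools held unequal numbers of rats, and no control lineage pool held more than a vinclozolin lineage pool. According to the methods of the study, the tissue of 1 group of rats was processed for both cell types, and the labels number the pools 1 to 3 in each group. These numbers are written as replicates here. The data hold DNA methylation and no expression, so the purity of the cell types was not checked. Total counts were 60600121 to 87262275 in the control epithelial, 57135700 to 73948807 in the control stromal, 74605038 to 109250697 in the vinclozolin epithelial and 71843106 to 112304623 in the vinclozolin stromal pools, and no window of any pool had a count above 300. Epithelial control replicate 1, the shallowest of its group, took a larger share of the scaled counts in windows of high count than in windows of low count, as described next. So did the shallowest pool of each other group. From windows of 60 to 79 counts to those of 400 or more, the median share rose from 32.55% to 35.79% in stromal control replicate 1. It rose from 34.71% to 37.33% in vinclozolin epithelial replicate 3 and from 33.66% to 40.47% in vinclozolin stromal replicate 3. A part of depth in this was not tested.

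A single pool set the list. In 394 of the 396 members the pool with the largest departure was epithelial control replicate 1, and it was high. In the other 2 members, which are neighbours on chromosome 14, replicate 2 was low. No member departed through replicate 3. Replicate 1 was the highest of the 3 pools in all 396 members, as in 52.6% of the eligible windows and 86.8% of those with 200 or more counts. In the 394 members the CPM (counts scaled to the column total of the pool) of replicate 1 were 2.41-fold the mean of replicates 2 and 3 in the median, with a range of 1.79-fold to 21.0-fold. The median CPM over the members was 2.15 in replicate 1, 0.905 in replicate 2 and 0.890 in replicate 3. Without replicate 1, a single window passed the same limits on the remaining pair of pools. Without replicate 2 the number was 80, and without replicate 3 it was 157.

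The members were windows of high count. Their summed count over the 3 pools ran from 62 to 627 with a median of 274.5, against a median of 80 over all eligible windows. A summed count of 200 or more was found in 298 members (75.3%) and in 4.00% of the eligible windows. A chi-square reaches a given p more readily at high counts, and the share of members rose from 0.00403% of windows with 60 to 79 counts to 3.58% of windows with 300 to 399 counts, and was 2.56% of windows with 400 or more. The share of epithelial control replicate 1 in the scaled counts also moved with the count of the window. Its median was 34.63% in windows of 60 to 79 counts, 39.48% in windows of 200 to 249 counts and 38.69% in windows of 400 or more, where equal pools would have 33.3%. Over all windows of 200 or more counts, replicate 1 was thus 1.29-fold the mean of the other pair in the median, and over all eligible windows 1.12-fold. When the expected counts were taken from windows of like summed count in place of the column totals, 17 windows in 11 joined regions passed the limit, and all 17 were members.

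**Figure D1:**
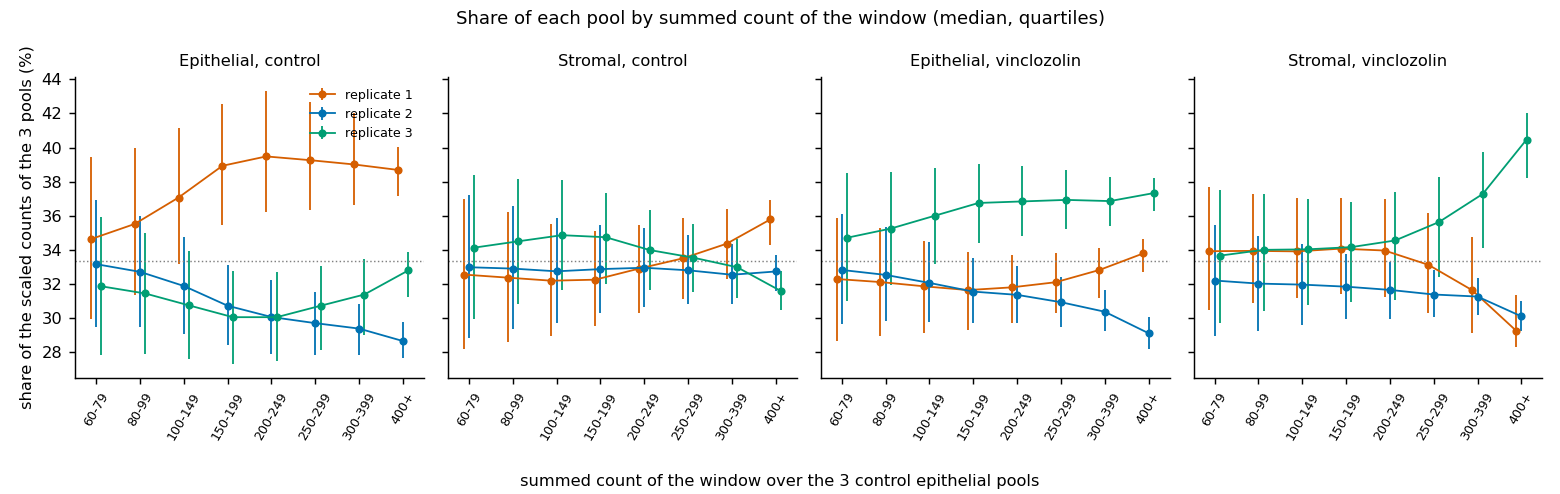
Median share of each pool in the scaled counts of the 3 pools of its group (vertical axis, percent) for eligible windows binned by summed count over the control epithelial pools (horizontal axis), with quartiles as bars and 33.3% dotted. Epithelial control replicate 1 climbs from 34.63% to 39.48%, and stromal control replicate 1 climbs from 32.55% to 35.79% and is the largest of its group in windows of 400 or more, where replicate 3 of the vinclozolin stromal pools has 40.47%.

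Members lay on every autosome. Chromosome 14 had 55, which is 0.304% of its eligible windows, chromosome 6 had 53 (0.26%) and chromosome 1 had 47 (0.099%). The fewest, 4 each, lay on chromosomes 12 and 19. Within 2 Mb of a chromosome end were 2.78% of the members and 3.09% of the eligible windows. Members with no more than 1000 bp from start to start were joined and formed 260 regions, of which 190 were single windows, 47 were pairs, 7 held 3 windows and 16 held 4 or more. These joined regions of at least 2 windows took up 206 members, or 52.0%. A read that overlaps neighbouring windows can be counted in each of them, so joined windows are not independent observations. The region with the most members, 12, ran from 46529101 to 46531500 on chromosome 14, followed by regions of 10 and 7 members on chromosome 6, from 31053701 to 31056900 and from 31059001 to 31060100 (build Rnor 6.0, as for all positions).

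The 5 regions with the smallest p had departures of several kinds. On chromosome 3, the window from 109837201 to 109837300 had a count of 73 in epithelial control replicate 1 and of 8 and 5 in replicates 2 and 3. The stromal control pools gave 58, 9 and 6 in the same order. Among the vinclozolin pools it was replicate 2 that stood high in both cell types, with counts of 9, 50 and 8 in epithelial and 8, 47 and 8 in stromal cells. The pool number that was high was thus the same in both cell types of a lineage and differed between the lineages. The 3 counts differed in each group that the rule did not use, with an adjusted p of 6.32e-15 in the stromal control, 0.00829 in the vinclozolin epithelial and 1.30e-04 in the vinclozolin stromal pools (chi-square, Benjamini-Hochberg adjusted over all autosomal windows of 60 or more counts in that group). The window 200 bp further along did not share the pattern, with counts of 42 to 55 in all 12 pools. At 500 bp the same pools were high again, with counts of 41, 7 and 4 in the epithelial and 40, 11 and 6 in the stromal control pools, and of 7, 22 and 8 in the epithelial and 9, 26 and 3 in the stromal vinclozolin pools.

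The window from 17504501 to 17504600 on chromosome 14, with its neighbour up to 17504700, was the only region whose departing pool was low. Counts were 94, 0 and 81 in epithelial control replicates 1 to 3 and 66, 0 and 102 in the stromal control pools. They were 80, 44 and 0 in the vinclozolin epithelial and 98, 42 and 0 in the vinclozolin stromal pools. Replicate 2 of the control lineage and replicate 3 of the vinclozolin lineage were therefore at 0 in both cell types, and vinclozolin replicate 2 lay between. Against the CPM that 3 counts would give in the pool at 0, epithelial control replicate 1 was at least 45.1-fold and replicate 3 at least 32.8-fold higher. The same bounds were 24.8-fold and 29.6-fold in the stromal control pools. The adjusted p of the chi-square was 4.97e-14 in the stromal control, 1.91e-12 in the vinclozolin epithelial and 1.81e-11 in the vinclozolin stromal pools.

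On chromosome 19, the window from 50419101 to 50419200 had counts of 66, 3 and 5 in the epithelial and 67, 3 and 8 in the stromal control pools. The 6 vinclozolin pools had 1 to 8. Replicate 1 of the control lineage thus stood alone in both cell types, and the stromal control pools differed with an adjusted p of 1.37e-21. The window just before it, from 50419001 to 50419100, was also high in these pools, with 45 and 48 counts, against 1 to 12 in the other 10. The windows 100 bp after and 200 bp before had at most 5 counts in every pool.

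In 2 further regions epithelial control replicate 1 stood alone among all 12 pools. On chromosome 1, the window from 169268001 to 169268100 had counts of 70, 8 and 9 in the epithelial control pools. The stromal control pools had 8, 20 and 9 and the vinclozolin pools 12 to 24. On chromosome 5, the window from 108804301 to 108804400 had counts of 71, 14 and 6 in the epithelial control pools. Its stromal control pools had 6, 14 and 8 and the vinclozolin pools 6 to 15. Replicate 1 was 3.72-fold and 5.39-fold the CPM of the next highest pool at these positions. In stromal cells, replicate 1 of the control lineage was below the mean of the other pair in both windows, at 0.648-fold and 0.645-fold. The stromal control counts summed to less than 60 there and were not tested.

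**Figure D2:**
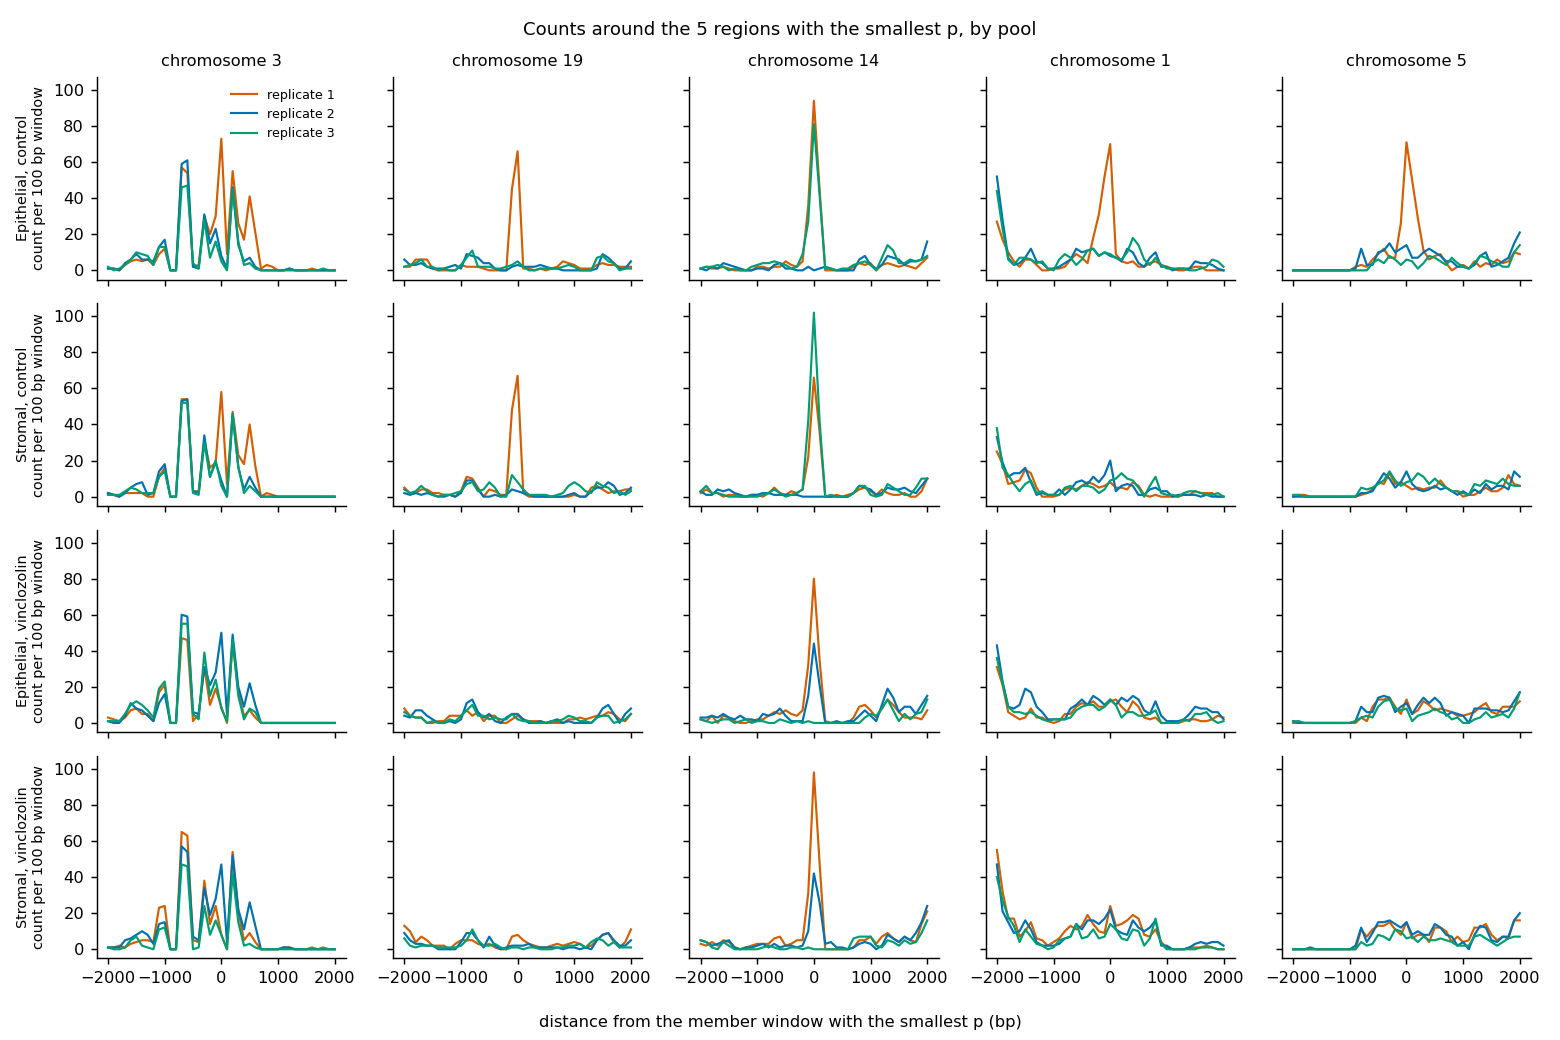
Counts per 100 bp window (vertical axes) within 2000 bp of the member with the smallest p in the 5 regions with the smallest p (columns), in the 4 groups (rows), with 1 line per replicate. The high stretches are a few windows wide, and on chromosomes 3, 14 and 19 the same replicates are high in both cell types of a lineage, whereas on chromosomes 1 and 5 the peak is seen in epithelial control replicate 1 alone.

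Other regions among the 10 with the smallest p were high in replicate 1 of the control lineage in both cell types. The window from 64899401 on chromosome 16 had counts of 98, 37 and 27 in the epithelial and 90, 32 and 42 in the stromal control pools, and 15 to 39 in the vinclozolin pools. The window from 38444501 on chromosome 1, in a region of 5 members, had 157, 67 and 64 in the epithelial and 144, 62 and 86 in the stromal control pools, and 50 to 94 in the vinclozolin pools. The window from 31063801 on chromosome 6 had 217, 113 and 103 and, in stromal cells, 205, 114 and 150, against 78 to 147 in the vinclozolin pools. The adjusted p among the stromal control pools was 1.68e-07, 1.43e-08 and 7.21e-07 in this order. The other regions of this set lay on chromosome 14 from 46533401 and on chromosome 6 from 31051801, in neighbourhoods described next.

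Members also lay close to each other beyond the joined regions. When members up to 1 Mb apart were gathered, the stretches with the most members were chromosome 14 from 44429101 to 46661600 with 39 members in 13 regions, chromosome 6 from 30643401 to 31064600 with 38 members in 7 regions, and chromosome 1 from 11924601 to 11930700 with 14 members in 3 regions. Together these neighbourhoods held 91 members (23.0% of all), against 4.23% of all windows with 200 or more counts (677) and 0.374% of all eligible windows (1493). Of the windows that passed against windows of like summed count, only those on chromosome 6 from 31063701, 31063801 and 31064401 lay in these neighbourhoods. On chromosome 14, the CPM summed over the 39 members was 104, 44.9 and 49.5 in epithelial control replicates 1 to 3 and 96.6, 56.4 and 60.8 in the stromal control pools. The vinclozolin pools had 38.9 to 44.8 in epithelial and 42.6 to 51.7 in stromal cells. On chromosome 6 the sums were 104, 43.8 and 48.8 in the epithelial and 105, 55.5 and 59.7 in the stromal control pools, and 37.6 to 53.6 in the vinclozolin pools. On chromosome 1 they were 37.4, 16.3 and 18.1 in the epithelial and 36.7, 19.8 and 22.5 in the stromal control pools, and 13.7 to 19.0 in the vinclozolin pools. Replicate 1 of the control lineage was thus the highest in both cell types at all 3 places, and the other 10 pools did not reach it. The study lists differentially methylated regions (DMRs) between the lineages at the chromosome 6 and 14 stretches in epithelial cells. It lists others beside the chromosome 1 stretch in stromal cells, and these DMRs were lower in the vinclozolin lineage. Its annotation names pRNA at some of them on chromosomes 1 and 14. They come from the same libraries, and whether the 3 places share sequence was not tested. Bins of 10 kb were examined for the main stretch of each neighbourhood, which on chromosome 14 starts at 46529101 and leaves out the members before it. In the bins with members there, the mean CPM of every pool was above that of its own flanks. On chromosome 6, for example, epithelial control replicate 1 had a mean of 98.9 CPM in 4 bins with members and of 12.5 CPM in 20 flanking bins, where the other pools had 11.0 to 13.8 CPM.

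**Figure D3:**
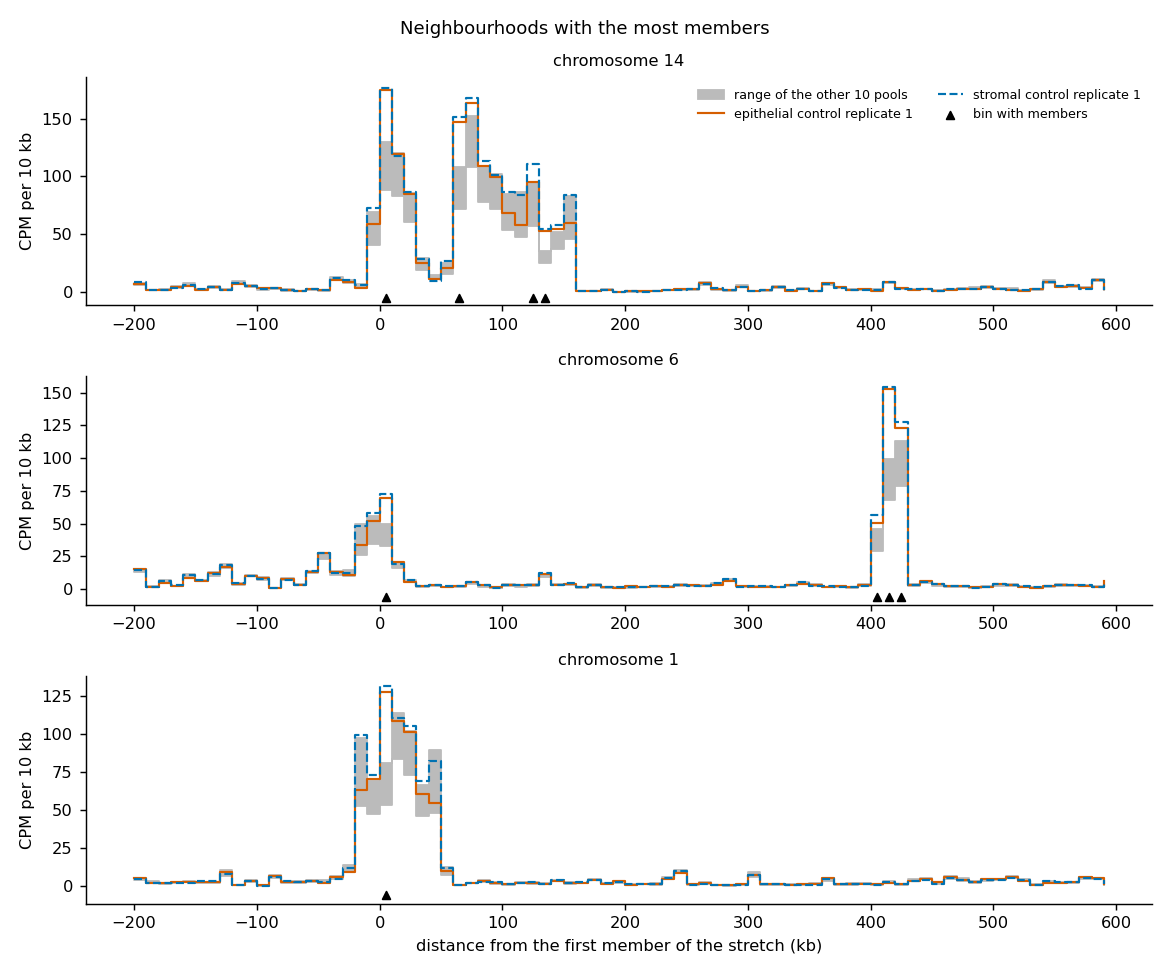
CPM per 10 kb bin (vertical axes) against the distance from the first member of the main stretch (horizontal axes, kb) in the neighbourhoods on chromosomes 14, 6 and 1, with triangles at bins with members. Epithelial and stromal control replicate 1 rise together above the range of the other 10 pools in the bins with members and lie within or close to that range in the flanks.

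The stromal control pools, which the rule did not use, often showed the pool of the same number high. Stromal control replicate 1 was also the shallowest of its group (57135700 counts), as epithelial control replicate 1 was (60600121 counts). Pool number and depth rank therefore cannot be told apart here. Stromal control replicate 1 was the highest of its group in 363 of 396 members (91.7%), against 29.8% of all eligible windows and 42.9% of windows with 200 or more counts. The fold of stromal replicate 1 over the mean of replicates 2 and 3 was 1.44 in the median of the 394 members in which epithelial replicate 1 departed, with a range of 0.608 to 15.2. It was 0.962 over all eligible windows and 1.03 over those with 200 or more counts. In 18 members (4.55%), stromal replicate 1 was below the mean of the other pair. The median CPM over the members was 1.42, 0.994 and 1.03 in stromal control replicates 1 to 3. The median fold was thus smaller than in the epithelial pools, and stromal replicate 1 was the highest of the 11 pools other than epithelial control replicate 1 in 346 members.

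By the chi-square test, the stromal control pools differed in 90 of the 391 members with a stromal count of 60 or more (23.0%, adjusted p under 0.05), where the background over all windows tested was 0.0903%. Among windows with 200 or more epithelial counts the shares were 80 of 298 members (26.8%) and 1.13% of all. Of the 90 members, 88 departed through a high replicate 1 and 2 through a low replicate 2. At p under 1e-10 there were 13 members, of 18 windows in all (0.00576% of those tested in the stromal control group). The calls were concentrated in the neighbourhoods on chromosomes 1, 6 and 14, with 75 of 91 members there (82.4%) and 15 of 300 elsewhere (5.00%). The share called among the other windows of these neighbourhoods is not given here. By the smallest-p window of each joined region, 27 regions were called. Without stromal control replicate 1, 1 member was called. Outside the neighbourhoods, replicate 1 was still the highest stromal control pool in 273 of 305 members (89.5%), with a median fold of 1.35, against 90 of 91 members and a median fold of 1.77 within them. The test compares the reads of 3 libraries with counting error alone, so it does not speak of conditions.

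**Figure D4:**
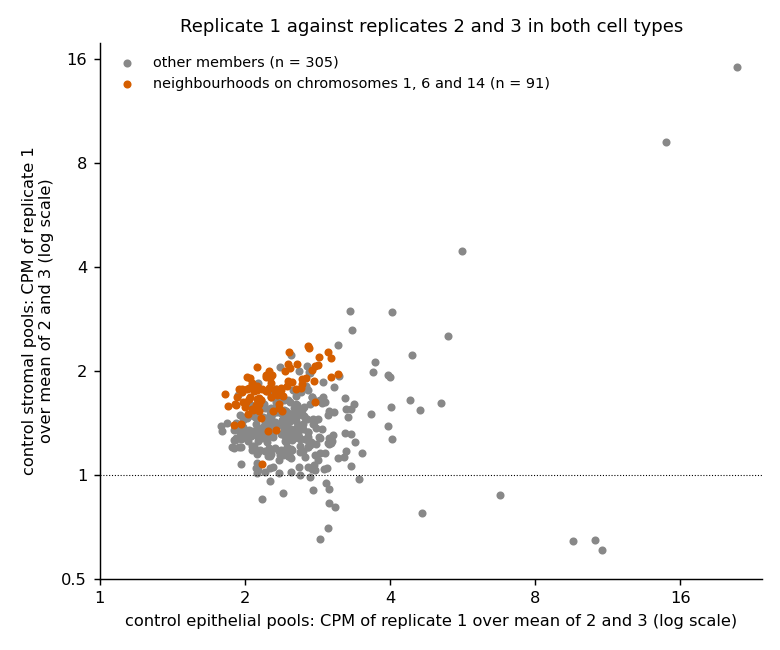
Fold of replicate 1 over the mean of replicates 2 and 3 in CPM, in the control epithelial pools (horizontal axis, log scale) and the control stromal pools (vertical axis, log scale), with 1 point per member and the 91 members of the neighbourhoods in orange. Most points lie above 1 on the vertical axis but below their epithelial fold, and the windows on chromosomes 1 and 5 with epithelial folds near 10 lie below 1.

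Across members, the deviations of pools from their group mean (log2 of CPM with 0.5 counts added) were compared between cell types. Over the 396 members, Pearson's r between epithelial and stromal control pools of the same number was 0.366, 0.757 and 0.538 for replicates 1 to 3, and between pools of other numbers at most 0.326. Much of this rested on the chromosome 14 windows with a pool at 0. Without those 2 windows, r was 0.231, 0.236 and 0.108, and for other numbers at most 0.295. Spearman's rho over the 396 members was 0.008, 0.248 and -0.012, and for other numbers at most 0.210. These are descriptions across windows that share libraries. Since replicate 1 is high in nearly every member, a shift common to the members drops out of r, which therefore does not show whether pools of the same number agree.

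In the vinclozolin lineage few members were called as differing between pools by the chi-square test. Vinclozolin epithelial replicate 3, the shallowest of its group, was still the highest of its group in 287 of 396 members (72.5%). Vinclozolin stromal replicate 1 was the highest of its group in 219 members (55.3%). No share of other windows is given for this order, so nothing is read from it about the members. The 3 epithelial pools differed in 2 of 386 members tested (0.518%, background 0.00276%), and these were the windows on chromosomes 3 and 14 described above. The 3 stromal pools differed in 4 of 388 (1.03%, background 0.123%). These were the same 2 windows, the neighbour on chromosome 14 from 17504601 (adjusted p 3.09e-04), with counts of 48, 26 and 0, and a window on chromosome 3 from 60390301 (adjusted p 6.91e-04), with counts of 83, 28 and 29. At that window the vinclozolin epithelial pools had 52, 41 and 29 and the epithelial control pools 64, 32 and 12. Among members with 200 or more counts, 0 of 298 differed in the chi-square test in either cell type, where 0.0313% of all such windows did in the epithelial and 4.45% in the stromal pools. Leaving out replicate 1 left 0 calls in the chi-square test of the vinclozolin pools of either cell type, as did leaving out replicate 3 in epithelial cells.

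Set against the vinclozolin lineage, epithelial control replicate 1 was above all 6 vinclozolin pools in 396 of 396 members and above all 11 other pools in 357 (90.2%). The share above all 11 other pools was 27.2% over all eligible windows and 48.4% over those with 200 or more counts. For the 6 vinclozolin pools alone no share of other windows is given, and nearly all members were picked through a high epithelial control replicate 1. Since the rule used the control epithelial pools, the comparison of lineages in epithelial cells is a description. The 3 vinclozolin pools lay below the 3 control pools in 87 members (22.0%), against 16.1% of all eligible windows and 21.5% of those with 200 or more counts. They could lie above them in 0 members, since epithelial control replicate 1 was above every vinclozolin pool in all of them, so nothing is read from the shares of 4.16% of all eligible windows and 1.05% of those with 200 or more counts. In the other 309 members the lineages overlapped. Leaving out epithelial control replicate 1 cannot change the number of 87, since that pool is above all vinclozolin pools in every member. Members with separate lineages numbered 168 without epithelial control replicate 2 and 215 without epithelial vinclozolin replicate 3. Fewer pools overlap less readily, and no share of other windows is given for these comparisons, so nothing is read from them about the members.

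**Figure D5:**
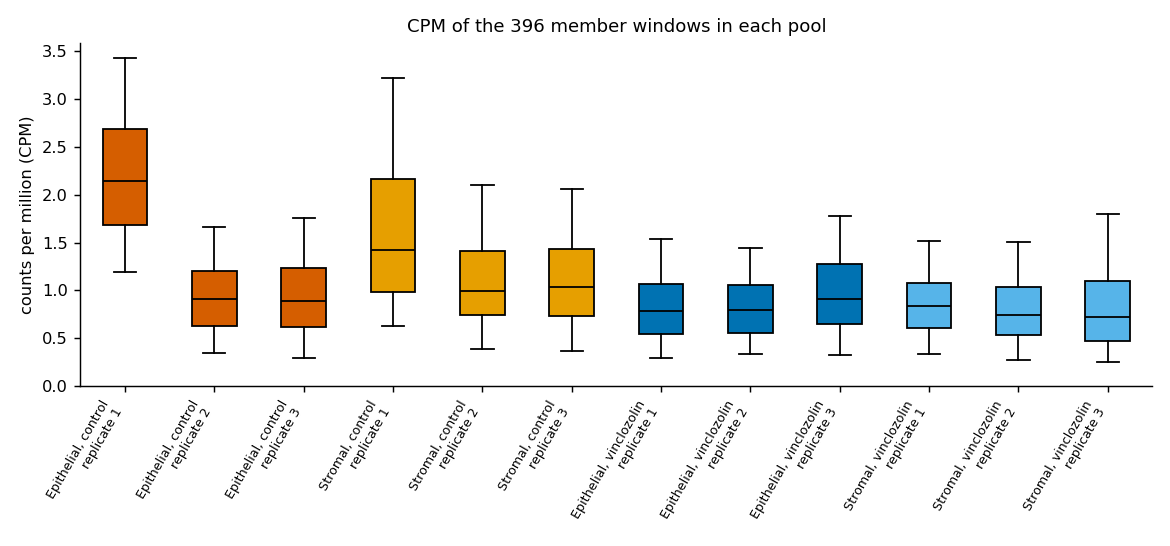
CPM of the 396 members in each of the 12 pools (boxes span the quartiles with the median as a line, whiskers the 5th to 95th percentile). Epithelial control replicate 1 has a median of 2.15 and stromal control replicate 1 of 1.42, the other control pools lie between 0.890 and 1.03, and the 6 vinclozolin pools between 0.724 and 0.905.

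In stromal cells the lineages were tested on counts that the rule did not use. Total counts were 71843106 to 112304623 in the vinclozolin stromal pools, against 57135700 to 73948807 in the control stromal pools. Lineage and depth therefore cannot be told apart in this test. By the methods of the study each group of rats gave both cell types, but the labels do not state that pool numbers match. If they do, stromal and epithelial control replicate 1 came from the same rats. This test is thus not free of the choice of members. Nearly all were picked for a high epithelial control replicate 1, and stromal control replicate 1 was the highest of its group in 91.7% of them. The fits without that pool, given below, are those the choice touches least. In 265 members (66.9%) the 3 vinclozolin pools lay below the 3 control pools, against 20.4% of all eligible windows and 45.9% of those with 200 or more counts, and in 1 member above (background 5.83% of all eligible windows and 0.494% of those with 200 or more counts). In the edgeR quasi-likelihood test over 3303916 windows, 193 members were lower in the vinclozolin lineage at a Benjamini-Hochberg adjusted p under 0.05, where 0.676% of all windows tested, 3.25% of the eligible windows tested and 17.4% of those with 200 or more counts were. By this edgeR test 0 members were higher, where 0.253% of all windows tested, 0.182% of the eligible windows tested and 0 of the windows with 200 or more counts were, and 1 member had an unadjusted p under 0.05 in that direction. The median log2 fold change of vinclozolin over control was -0.57 over the members, -0.11 over the eligible windows, -0.30 over those with 200 or more counts and -0.00 over all windows tested. Called members were 68 of 91 in the neighbourhoods on chromosomes 1, 6 and 14 (74.7%) and 125 of 305 elsewhere (41.0%). No called share is given for the other windows of these neighbourhoods, so this difference cannot be assigned to the members.

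The count depended on single pools. Without stromal control replicate 1, 17 members were called, with a median log2 fold change of -0.37, while the lower calls over all windows went from 22326 to 11459. That was 4.29% of the members, against 1.67% of all eligible windows and 7.51% of those with 200 or more counts in the same fit. The members' share was then below that of the windows with 200 or more counts, though not all members have so many. For members with 200 or more counts no share is given in this fit. Without stromal vinclozolin replicate 2, 36 members were called, of 3944 calls over all windows (9.09% of the members called lower, against 0.472% of eligible windows and 2.59% of those with 200 or more counts), with a median log2 fold change of -0.56, close to the -0.57 with all pools. Without stromal vinclozolin replicate 3, the shallowest of its group, 185 members were called, or 46.7%. In that fit 2.49% of eligible windows and 25% of those with 200 or more counts were called lower. By edgeR's exact test 97 members were called, of 18497 calls over all windows, with a median log2 fold change of -0.58. That was 24.5% of the members called lower, against 2.32% of eligible windows and 16.7% of those with 200 or more counts. DESeq2, run on chromosome 20 plus the members, called 0 of 84207 windows, so its 0 members say nothing particular about them. By DESeq2 the members' median log2 fold change was -0.59, and 259 of them, all lower in vinclozolin, had an unadjusted p under 0.05. In either direction 3554 of the 84207 windows did, the members included. Members are mostly windows of high count, and no such share is given for other windows of high count. Of the 193, 11 were called in each of the 6 fits that left out a pool. The quasi-likelihood fit gave the spread shared by all windows a weight of 378 prior degrees of freedom (median), against 4 residual degrees of freedom of a window's own pools, so that the spread within a window counted little. Of the 193 called members, 167 had every vinclozolin pool below every control pool and 26 had overlapping lineages.

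The 5 members with the smallest p of the stromal lineage test were all lower in the vinclozolin lineage. The smallest was that of the chromosome 19 window from 50419101, with a CPM, in this and the next paragraph scaled to TMM-adjusted totals, of 1.18, 0.0464 and 0.106 in stromal control replicates 1 to 3 and of 0.0723, 0.0182 and 0.0141 in the vinclozolin pools. Its log2 fold change was -3.35 with an SE of 0.41 (adjusted p = 1.11e-09, edgeR quasi-likelihood test), yet the lineages overlapped and the SD of the control pools, 0.636, exceeded their mean of 0.443. Without a pool the log2 fold change ranged from -4.46 to -1.03. The window from 64899401 on chromosome 16 had 1.58, 0.495 and 0.556 CPM in the control and 0.316, 0.345 and 0.211 in the vinclozolin pools, with a log2 fold change of -1.47 (SE 0.21). Here the lineages did not overlap, though replicate 1 was far above its group. In both windows 5 of the 6 fits without a pool kept the call.

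The windows on chromosome 16 from 37023001 and on chromosome 8 from 48072001 kept the call in all 6 such fits. The former had 1.91, 1.38 and 1.19 CPM in the control and 0.886, 0.645 and 0.703 in the vinclozolin stromal pools (log2 fold change -0.97, SE 0.16, adjusted p = 5.89e-05, edgeR quasi-likelihood test). The latter had 1.37, 0.974 and 0.967 against 0.678, 0.418 and 0.520 (log2 fold change -1.01, SE 0.17, adjusted p = 1.42e-04, edgeR quasi-likelihood test). The control pools of these windows lay closer together than on chromosome 19, and every vinclozolin pool was below every control pool. The fifth window, on chromosome 6 from 30650501, lay in the neighbourhood there, with 2.21, 0.773 and 1.07 CPM in the control and 0.696, 0.590 and 0.745 in the vinclozolin pools (log2 fold change -0.97, SE 0.17, adjusted p = 1.90e-04, edgeR quasi-likelihood test). By edgeR's exact test its adjusted p was 0.111, and its log2 fold change ran from -1.24 to -0.48 in the fits without 1 pool, 5 of which called it. In the upward direction the smallest p belonged to a window on chromosome 4 from 177680801, which was not called (log2 fold change 0.36, SE 0.16, adjusted p = 0.283, edgeR quasi-likelihood test). The chromosome 1 window from 169268001, so high in epithelial control replicate 1, did not pass the stromal test either (log2 fold change 0.13, SE 0.30).

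At the edge of the rule, the 5 members with the largest p had values from 9.47e-11 to 9.70e-11, and the 5 eligible windows just outside from 1.02e-10 to 1.04e-10. The member nearest the limit, on chromosome 14 from 46533701, had epithelial control counts of 115, 62 and 72. The nearest window outside, on chromosome 2 from 25380701, had 67, 25 and 31. Of these 10 windows, 4 lay in the neighbourhoods on chromosomes 6 and 14, 2 on each side of the limit.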

How the data were processed

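MeDIP-Seq counts of 12 pools were analysed, 3 per lineage and cell type, grouped by their titles. Per the study's methods and processing notes, the authors checked reads with FastQC, used Trimmomatic for trimming, Bowtie2 for mapping to Rnor 6.0, SAMtools for sorting and MEDIPS for counting in windows of 100 bp (versions not given in the sources used here). The deposited count columns hold whole numbers without normalization and end at 300 in every pool, so the highest windows may be understated. The deposited RPKM columns, scaled by the authors to window length and library size, were not used, nor were the authors' group means, edgeR fold changes and p-values.

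The members and lists were chosen with earlier results of these data known. Chi-squares compared the 3 counts of a window with the column totals of the pools (scipy 1.17.1), and cover counting error only. Called windows had a Benjamini-Hochberg adjusted p under 0.05 over all autosomal windows with a summed count of 60 or more in that group. Stromal lineages were compared by edgeR 4.0.16 (R 4.3.3, glmQLFit with TMM) on windows whose 6 stromal counts summed to 40 or more. The SE is the log2 fold change over the root of its F statistic. DESeq2 1.42.0 was run as an alternative on chromosome 20 plus all members. Both tests were tested on simulated data. Windows were named by a rule: the 10 joined regions of smallest p, the 3 with the most windows, those of smallest p in each class of departing pool and in each other group, the 5 members of smallest p per direction of the stromal lineage test, and 5 windows on each side of the limit. Not all are given. The 3 neighbourhoods and the windows of like count were chosen after their values were seen. Genome sequence and gene annotation of Rnor 6.0 were not used here, apart from the study's own annotation of its DMRs. Genes, sequence and gene family lists were therefore not assigned to the windows.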

Additional observations from a re-analysis of the deposited data

How the results depend on the processing

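The number of members was 396 as given, 212 with TMM-scaled library sizes (210 of them through a high replicate 1, in 148 joined regions), 1883 at p under 1e-06, 9 at p under 1e-20, and from 1 to 157 when 1 epithelial control pool was left out. Against windows of like summed count, an alternative chosen after seeing the data, it was 17, of which 15 through a high replicate 1. Members called among the stromal control pools numbered 90 as given, 56 with no smallest summed count, 27 by joined regions, 15 outside the neighbourhoods on chromosomes 1, 6 and 14 (chosen after seeing the data), and from 1 to 91 without 1 pool. Among the vinclozolin epithelial pools they numbered 2 as given, 1 with no smallest summed count, 1 at a summed count of 120 or more, and 0 to 1 without 1 pool. Among the vinclozolin stromal pools 4 became 0 to 3 without 1 pool. The 87 members with separate lineages in epithelial cells became 87 to 215 without 1 pool, where fewer pools overlap less readily. No share of other windows is given for these comparisons. Members called in the stromal lineage test numbered 193 as given, 97 by edgeR's exact test, 125 outside the neighbourhoods, and 17 to 185 without 1 pool. By DESeq2 they numbered 0. It called 0 of all 84207 windows it was run on, with 259 members and 3554 windows, members included, at an unadjusted p under 0.05 in either direction. Without a filter on low counts, 0 members were called in a fit on an evenly spaced subset of windows plus all members. That fit changes the windows tested as well. In it, 292 members were lower and 2 higher at an unadjusted p under 0.05, as were 161403 of 2334343 windows in either direction. The cause of these differences in number was not tested. In all, 48 of 77 alternatives stayed within 1.5 times the value as given, and no member was called higher in the vinclozolin lineage in any of these stromal fits.

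The sources used here state nothing that control and vinclozolin pools of the same number share beyond that number. The correlation of their deviations over 3303916 windows was -0.0116, 0.00115 and 0.0069, and between -0.0132 and 0.0137 for other numbers, so not every pool correlated best with its own number. With pool number as a replicate block, 206 members were called in the stromal lineage test. That was 52% of the members called lower, against 3.36% of eligible windows and 17.4% of those with 200 or more counts. The counting depth limits windows of low count: 5 members in the stromal control, 10 in the vinclozolin epithelial and 8 in the vinclozolin stromal pools summed to less than 60 and were not tested there.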
